A study of Mus musculus with 24 samples.

Results

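The lower part of the mouse jejunal villus was described by comparing zone V4, the middle zone, with zone V1, the most bottom zone. The comparison uses 8 of the 24 libraries of the study, 4 per zone, with 1 library of each zone from each of 4 mice, and takes in every gene of the table. All mice were C57BL/6 males aged 10 weeks on regular chow, and the labels name no genetic change and no other treatment in either zone. Epithelial cells were released with EDTA, sorted by 2 stained surface proteins, CD73 and CD26, into 6 zones from V1 to the tip, V6. RNA with a poly(A) tail was made into bulk mcSCRB-seq libraries, which count each captured molecule once by a unique molecular identifier (UMI). A zone is therefore a gate on 2 surface proteins and not a cut through the tissue, and a lower level in a bulk library cannot tell fewer cells of a type from less RNA per cell.

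Epithelial cells of the small intestine are born in the crypt, leave it at the villus base and move up to the tip, where they are shed. On the way, absorptive cells (enterocytes) stop dividing, build a brush border of microvilli and take up sugars, amino acids and fats. Goblet cells, which secrete mucus, enteroendocrine cells, which secrete hormones, and the much rarer tuft cells move along with them, while Paneth cells, which secrete antimicrobial peptides, stay at the crypt base. The step from V1 to V4 covers the lower villus, where this maturation has been described.

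The V1 libraries held 1490213 to 1602022 UMIs and the V4 libraries 806541 to 1822822. Thinned to 806541 UMIs each, V1 libraries detected 12913 ± 163 genes and V4 libraries 12269 ± 235 (mean ± SD, n = 4). The 10 most abundant genes took 15.6% ± 2.26 of the UMIs in V1 and 21.1% ± 1.59 in V4. No 2 libraries of a zone were copies of each other. On the first principal component of the 8 libraries (58.6% of the variance) V1 lay between -63.3 and -19.5 and V4 between 16.4 and 67.7. The second (12.5%) held mice 1 and 2 above 0 and mice 3 and 4 below 0 in both zones, and several of the gene groups below also differ between these pairs of mice.

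Levels are given as CPM, the usual counts-per-million unit, with library totals scaled by TMM, in the order of mice 1 to 4. Differences are log2 V4 minus V1 ± SE from the edgeR quasi-likelihood model with zone and mouse, and a gene was called at an adjusted p under 0.05 over all genes tested. Genes were named by a fixed rule of size and adjusted p. Those named as exceptions to the direction of their list, as not called or as too low to test, and Fabp2, Hnf4a, Hnf4g, Hspa5 and Atoh1, were chosen after their values were seen. The genes of the 2 sorted proteins check the labels and are no finding. Nt5e (CD73) had 1.58, 1.72, 1.24 and 0 CPM in V1 and 48.8, 8.94, 40.2 and 27.2 CPM in V4. Dpp4 (CD26, a brush-border peptidase) had 140.2, 97.2, 200.4 and 150.4 CPM in V1 and 509, 487, 478 and 541 CPM in V4. Both were above V1 in V4 of every mouse, without overlap, by 4.64 ± 0.42 and 1.80 ± 0.15.

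Of 9328 genes tested, 4703 (50.4%) differed between V4 and V1, with 2391 higher in V4 (25.6%) and 2312 lower (24.8%). The difference was more than 2-fold in 1145 of the genes that were higher and in 1005 of those that were lower, and more than 4-fold in 237 and 101. All 4 libraries of V4 lay above all 4 of V1 in 1507 genes (16.2%) and below them in 1386 (14.9%). The share of genes called was 32.3% below a mean of 10 CPM, 48.8% from 10 to 50, 65.2% from 50 to 200 and 73.7% from 200 CPM up. The median log2 difference of all genes was -0.02 with TMM scaling. With scaling by the total UMI count it was -0.34, and the split of calls became 1482 higher and 3650 lower. Differences are therefore relative to the bulk of genes, and a small rise on this scale need not be one on the scale of total UMIs.

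The 12 largest rises, counting genes whose mean reached 50 CPM and whose direction was the same in all mice, were those of Pmp22, Clca4a, Ada, Susd2, Apoa4, Cyp3a11, Bst1, Apob, Apoc3, Slc34a2, Enpp3 and Maf. They hold 3 apolipoproteins (Apoa4, Apob and Apoc3) and 3 enzymes of nucleotide metabolism (Ada, Bst1 and Enpp3). The rule itself required V4 above V1 in all 4 mice. The zones did not overlap in any of the 12, which a choice by size favours. Their log2 differences ran from 4.71 for Pmp22 down to 3.02 for Maf. Pmp22 (ENSMUSG00000018217, chr11:63128982-63159547 of GRCm38), a membrane protein of cell junctions best known from myelin, had 17.4, 20.6, 30.3 and 18.4 CPM in V1 and 648, 450.2, 595 and 580.0 CPM in V4. It was nearly even among mice in both zones, a difference of 4.71 ± 0.30 (adjusted p = 5.07e-10). Ada (ENSMUSG00000017697, chr2:163726584-163750239), adenosine deaminase, which turns adenosine into inosine, had 50.6, 90.9, 153 and 64.2 CPM in V1 and 1361, 1433, 2363 and 1788 CPM in V4. The lowest V4 library was well above the highest V1 library, and the model gave a 20.2-fold rise (4.34 ± 0.31, adjusted p = 2.98e-09). Susd2, a membrane protein with a sushi domain, had 3.69, 6.86, 5.57 and 8.32 CPM in V1 and 103, 115, 125 and 121 CPM in V4 (4.24 ± 0.25).

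Promoters of 3 of the rising genes are shown because each holds a match to a motif bound by HNF4. HNF4 is a nuclear receptor of the gut epithelium and liver, encoded by Hnf4a and Hnf4g. The window runs from 250 bases before to 50 after the gene start, from RefSeq on GRCm38.p6, on the plus strand for all 3 genes. Capitals mark the match to CAAAGTNCA, searched on both strands and so also as TGNACTTTG. Apoa4 lies at chr9:46240594-46240893 with the match 182 bases before the RefSeq start, Fabp2, the intestinal fatty acid binding protein, at chr3:122894822-122895121 (137 bases) and Treh at chr9:44672983-44673282 (71 bases). For Apoa4 the GENCODE start, 46240696, lies upstream of the RefSeq start, so the match is nearer to it.
Apoa4: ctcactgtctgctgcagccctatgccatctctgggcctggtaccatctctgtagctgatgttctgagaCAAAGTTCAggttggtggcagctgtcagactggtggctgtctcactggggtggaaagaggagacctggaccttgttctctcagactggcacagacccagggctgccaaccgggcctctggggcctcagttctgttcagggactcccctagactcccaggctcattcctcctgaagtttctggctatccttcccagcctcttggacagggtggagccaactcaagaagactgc
Fabp2: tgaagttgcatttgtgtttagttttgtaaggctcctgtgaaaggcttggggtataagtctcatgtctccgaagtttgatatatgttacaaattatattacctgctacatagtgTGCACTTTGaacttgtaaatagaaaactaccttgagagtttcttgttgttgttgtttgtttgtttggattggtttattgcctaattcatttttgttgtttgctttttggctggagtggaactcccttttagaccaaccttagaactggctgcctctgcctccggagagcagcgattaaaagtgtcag
Treh: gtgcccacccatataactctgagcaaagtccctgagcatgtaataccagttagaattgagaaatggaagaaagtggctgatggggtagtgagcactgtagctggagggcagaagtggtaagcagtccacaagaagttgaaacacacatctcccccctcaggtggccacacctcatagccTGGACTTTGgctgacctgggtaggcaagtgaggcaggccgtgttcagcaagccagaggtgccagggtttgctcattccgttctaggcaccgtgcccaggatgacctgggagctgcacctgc
The motif was in 110 of the 6641 tested genes with a promoter in the table (1.66%). It was in 47 of 1761 genes higher in V4 (2.67%), in 17 of 1454 lower in V4 (1.17%) and in 46 of 3426 not called (1.34%). By list, it was in 2 of 14 promoters of brush-border hydrolases, 2 of 20 of lipid absorption and 2 of 19 of microvillus structure. The list with the most matches was glutathione and xenobiotic metabolism, with 4 of 28. The motif was also in 2 of 14 of the goblet cell list and 1 of 14 aminoacyl-tRNA synthetases, both lists mostly lower in V4. Few promoters of any group hold these letters, and a match is not a measured site of binding. A part of HNF4 in the rises was not tested. Hnf4a had 128, 126, 155 and 164 CPM in V1 and 193, 181, 225 and 227 CPM in V4 (0.53 ± 0.13), and Hnf4g had 17.4, 14.9, 25.98 and 26.2 and 42.3, 34.1, 59.1 and 31.3 CPM (0.99 ± 0.29). Both genes were higher in V4 without overlap, but with total UMI scaling the differences were 0.21 for Hnf4a and 0.67 for Hnf4g and neither was called (adjusted p = 0.221 and 0.0507).

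**Figure D1:**
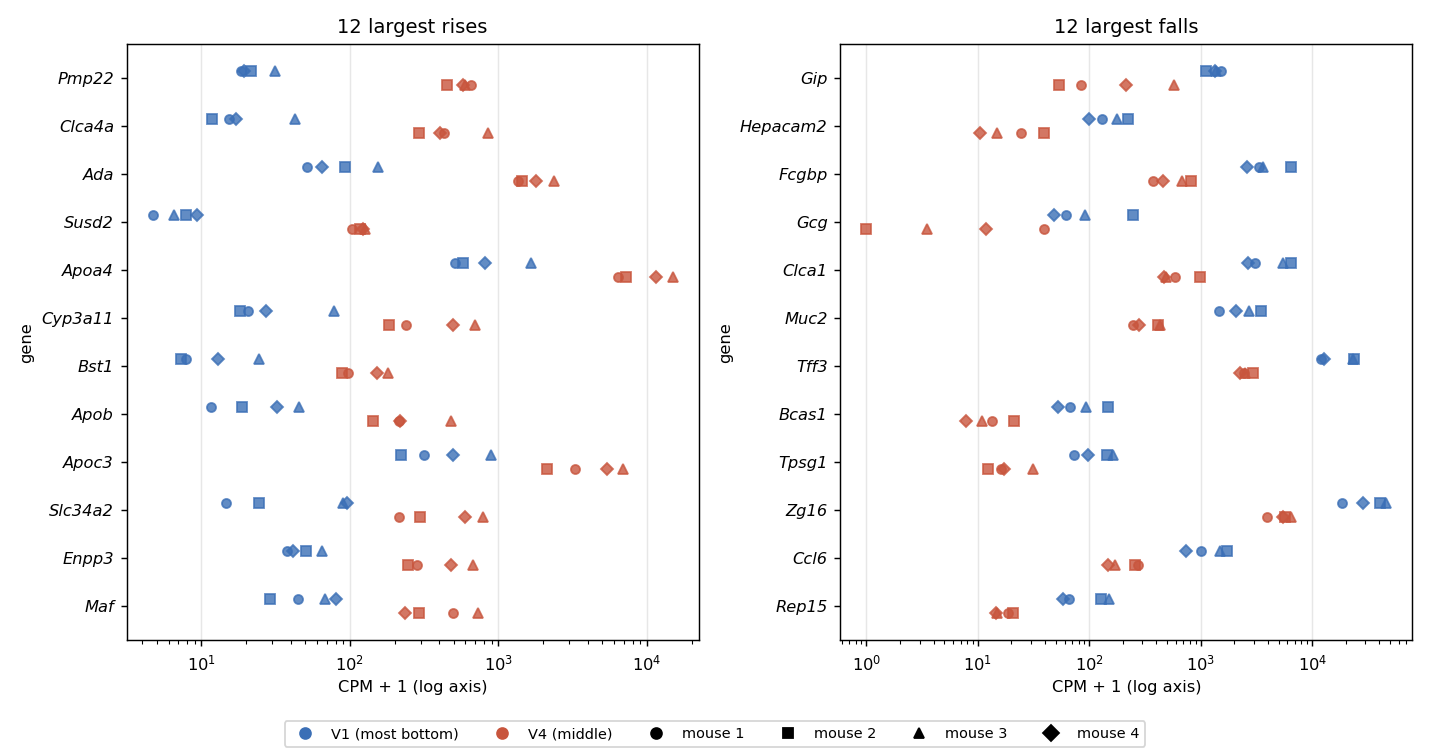
CPM plus 1 (log axis) of the 12 genes with the largest rises (left) and the 12 with the largest falls (right) in each of the 8 libraries, blue for V1 and red for V4, with 1 marker shape per mouse. In all 24 genes the 4 V4 libraries lie on 1 side of the 4 V1 libraries, which the choice by size and by 1 direction in all mice favours. Gip and Gcg spread most among the V4 libraries.

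The apolipoproteins rose together. Apoa4 (ENSMUSG00000032080, chr9:46240696-46243459), secreted on chylomicrons, had 512, 580.5, 1650.5 and 809.8 CPM in V1 and 6368, 7251, 14906 and 11596 CPM in V4. Apoc3, an inhibitor of triglyceride clearance, had 316, 220.2, 883 and 493 and 3284, 2127, 6902 and 5397 CPM. In both genes mouse 3 was the highest of its zone, and V1 and V4 did not overlap. Apob, the structural protein of chylomicrons, went from 26.1 ± 15.1 to 262 ± 148 CPM (3.31 ± 0.29). Of the other large rises, Slc34a2, a sodium-phosphate cotransporter of the apical membrane, had 13.7, 23.4, 89.1 and 94.5 CPM in V1 and 212, 297, 783 and 594 CPM in V4. Mice 3 and 4 were higher than mice 1 and 2 in each zone, and the difference within mice was 3.22 ± 0.29. Enpp3, an enzyme that splits extracellular nucleotides, went from 47.7 ± 11.98 to 421 ± 199.8 CPM, and Bst1, which makes cyclic ADP-ribose, from 12.1 ± 7.99 to 128 ± 44.2 CPM. Maf, a transcription factor, had 43.7, 28.02, 66.8 and 79.1 CPM in V1 and 491, 290.1, 731 and 234 CPM in V4 (3.02 ± 0.32). Cyp3a11, a drug-metabolizing cytochrome P450 (3.56 ± 0.19), and Clca4a, of the calcium-activated chloride channel regulator family (4.62 ± 0.25), have close gene copies, and the sources do not say how shared reads were counted.

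By the same rule, the 12 largest falls were those of Gip, Hepacam2, Fcgbp, Gcg, Clca1, Muc2, Tff3, Bcas1, Tpsg1, Zg16, Ccl6 and Rep15. Of these, 9 are in the goblet cell list (Fcgbp, Clca1, Muc2, Tff3, Bcas1, Tpsg1, Zg16, Ccl6 and Rep15) and 2 in the enteroendocrine list (Gip and Gcg). Zg16, a lectin of the mucus, had 18621, 40896, 46358 and 28428 CPM in V1 and 3931, 5710.4, 6489 and 5505 CPM in V4. Tff3, the trefoil peptide of goblet cells, had 11964, 23789.9, 23200.2 and 12639 and 2421, 2947, 2508 and 2269.7 CPM. Muc2 (ENSMUSG00000025515, chr7:141690340-141754693), the gel-forming mucin, had 1463, 3435, 2703 and 2074 and 246, 414, 428 and 280.5 CPM. In these 3 genes V1 was lowest in mouse 1, V4 spread less among mice, and the groups did not overlap. The falls were -2.59 ± 0.27, -2.77 ± 0.29 and -2.77 ± 0.30 on the log2 scale (adjusted p = 2.75e-07, 5.69e-07 and 1.04e-06). Gip (ENSMUSG00000014351, chr11:96024545-96030831), the incretin hormone of K cells, had 1505, 1110.0, 1367 and 1332 CPM in V1 and 84.03, 52.01, 569 and 214 CPM in V4. The V1 libraries were alike, the V4 libraries were far apart (mouse 2 lowest, mouse 3 highest), and the difference was -2.88 ± 0.72 (adjusted p = 0.00356). Gcg, which encodes glucagon and GLP-1, had 60.6, 248, 90.9 and 47.6 and 38.2, 0, 2.46 and 10.9 CPM (-2.79 ± 0.94, adjusted p = 0.0219). The call of Gcg ended without mouse 2 (-1.89, adjusted p = 0.159), without mouse 3 (-2.50, adjusted p = 0.0825) and with the V1 and V4 libraries fitted alone (-2.93, adjusted p = 0.147). Hepacam2, an adhesion molecule of the immunoglobulin family and no member of either list, had 129.6, 222, 176 and 99.3 and 23.5, 38.2, 13.96 and 9.53 CPM (-2.83 ± 0.24).

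Genes of nutrient absorption were mostly higher in V4. The brush-border hydrolases, which finish the digestion of peptides and sugars at the cell surface, were higher in 16 of 17 genes tested and lower in 0, with a median log2 difference of 2.04 beside -0.02 for all genes. The list holds Dpp4, a gene of the sort, and without it 15 of 16 were higher (median 2.09). Treh, trehalase, had 27.4, 21.2, 48.3 and 30.3 CPM in V1 and 172, 195, 273 and 260.1 CPM in V4 (2.84 ± 0.16, adjusted p = 4.14e-16). Its zones did not overlap. The peptidases Mme, Ace and Anpep rose by 2.85 ± 0.17, 2.46 ± 0.16 and 2.56 ± 0.23, and Anpep was the most abundant of the list at 2575 ± 1117 CPM in V4. The 1 gene not called was Sis, sucrase-isomaltase. It had 304, 148, 733 and 802 CPM in V1 and 612, 501, 912 and 851 CPM in V4, with the 2 zones overlapping between mice (0.68 ± 0.28, adjusted p = 0.0564). Sis was called without mouse 3 (0.86, adjusted p = 0.0399) or mouse 4 (0.91, adjusted p = 0.0438) and with DESeq2 (0.68, adjusted p = 0.0133).

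In lipid absorption and chylomicron assembly, 24 of 27 genes were higher in V4 and 0 lower (median 1.43). Apoa1, the most abundant, had 4504, 3072, 10436 and 7485 CPM in V1 and 26700.2, 27659.5, 46032 and 46282 CPM in V4 (2.62 ± 0.16). Fabp2, whose promoter is shown above, had 2709.9, 2002, 5406 and 4091 and 19158, 12911, 21461 and 24180.1 CPM (2.49 ± 0.16). Creb3l3, a membrane-bound transcription factor known to act on apolipoprotein genes, went from 127 ± 24.6 to 602 ± 68.05 CPM (2.26 ± 0.14). V4 lay above V1 without overlap in each of these 3 genes. The summed level of the list was 15042, 10879, 27722 and 20203 CPM in V1 and 73177, 71062, 114574 and 112295 CPM in V4. Not called were Acsl3, Scarb1 and Plin2 (0.67, 0.70 and 0.10), genes of fatty acid activation, lipid uptake and the lipid droplet coat. Acsl3 was called without V1 of mouse 2 (1.26, adjusted p = 0.00275) and Scarb1 without V4 of mouse 1 (1.15, adjusted p = 0.0399).

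Amino acid and peptide transporters were higher in 13 of 16 genes and lower in 3 (median 1.12). Slc6a19, the main apical carrier of neutral amino acids, had 42.7, 40.03, 43.3 and 51.1 CPM in V1 and 306, 335, 344 and 396 CPM in V4, tight in both zones (2.96 ± 0.15, adjusted p = 6.3e-17). Slc7a15, of the cationic amino acid transporter family (3.13 ± 0.19), Slc15a1, the peptide transporter (2.66 ± 0.19), Slc3a1, which pairs with an apical exchanger (1.69 ± 0.15), and Slc3a2, its basolateral counterpart (1.02 ± 0.18), rose as well. The 3 genes that fell were the glutamine carrier Slc1a5, the glutamate carrier Slc1a1 and the sodium-coupled Slc38a2. Slc1a5 had 41.6, 57.8, 27.2 and 32.1 CPM in V1 and 19.98, 25.2, 1.64 and 4.08 CPM in V4 (-1.64 ± 0.28), below V1 in every mouse. Slc1a1 and Slc38a2 fell by less (-0.88 ± 0.25 and -0.74 ± 0.24) and are low genes. Without mouse 4, only 1 of the 3 falls was called.

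Sugar transport and fructose metabolism was higher in 14 of 15 genes and lower in 0 (median 1.38). Slc5a1, the sodium-glucose cotransporter, had 612, 364, 734 and 866 CPM in V1 and 1661, 1987, 1391 and 1974 CPM in V4 (1.46 ± 0.19). Slc5a4b, of the same family as Slc5a1, went from 9.50 ± 1.86 to 29.6 ± 8.87 CPM. Pck1, the gluconeogenic carboxykinase, was nearly even in V1 (9.49, 9.72, 8.04 and 8.32 CPM) and spread in V4 (82.3, 37.4, 13.96 and 38.1 CPM). Fbp1, the next enzyme of gluconeogenesis in the list, was the 1 gene not called (28.99, 35.5, 19.2 and 20.8 CPM in V1 and 27.03, 37.4, 16.4 and 29.95 CPM in V4). The microvillus structure list was higher in 21 of 24 genes and lower in 0 (median 1.41). Espn, an actin-bundling protein, had 76.4, 84.1, 135 and 102 CPM in V1 and 368, 511, 725 and 474 CPM in V4 (2.39 ± 0.14). The scaffold Pdzk1 (2.44 ± 0.16), the tip-link cadherin Cdhr2 (2.25 ± 0.16) and the ezrin partner Slc9a3r1 (1.74 ± 0.13) rose too. Of the actins, Actb went from 2223 ± 786 to 5755 ± 1372 CPM (1.41 ± 0.15), while Actg1 had 203 ± 43.04 and 187 ± 21.4 CPM and was not called (-0.10 ± 0.14).

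Mineral, vitamin and bile acid uptake was higher in 12 of 20 genes and lower in 0 (median 0.90). With total UMI scaling 10 of the 20 were higher and 3 lower (median 0.58). Without mouse as a block 8 were higher and 0 lower, and leaving out mouse 2 gave 11 higher and 2 lower. Rbp2, the retinol-binding protein of enterocytes (2.23 ± 0.14), Slc46a1, the proton-coupled folate transporter (2.70 ± 0.18), Bco1, which splits beta-carotene (3.48 ± 0.35), and Slc39a4, the zinc importer (1.26 ± 0.14), were higher in V4. Slc46a1 had 22.7, 14.3, 45.8 and 32.7 CPM in V1 and 159, 106, 204 and 271 CPM in V4, without overlap. Fth1, ferritin heavy chain and the most abundant of the list, rose by 0.37 ± 0.11 with TMM scaling and was not called with total UMI scaling (0.04, adjusted p = 0.721) or without mouse as a block (0.35, adjusted p = 0.398). The iron carriers Slc11a2 and Slc40a1 had 0.23 ± 0.18 and -0.14 ± 0.43 and were not called.

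**Figure D2:**
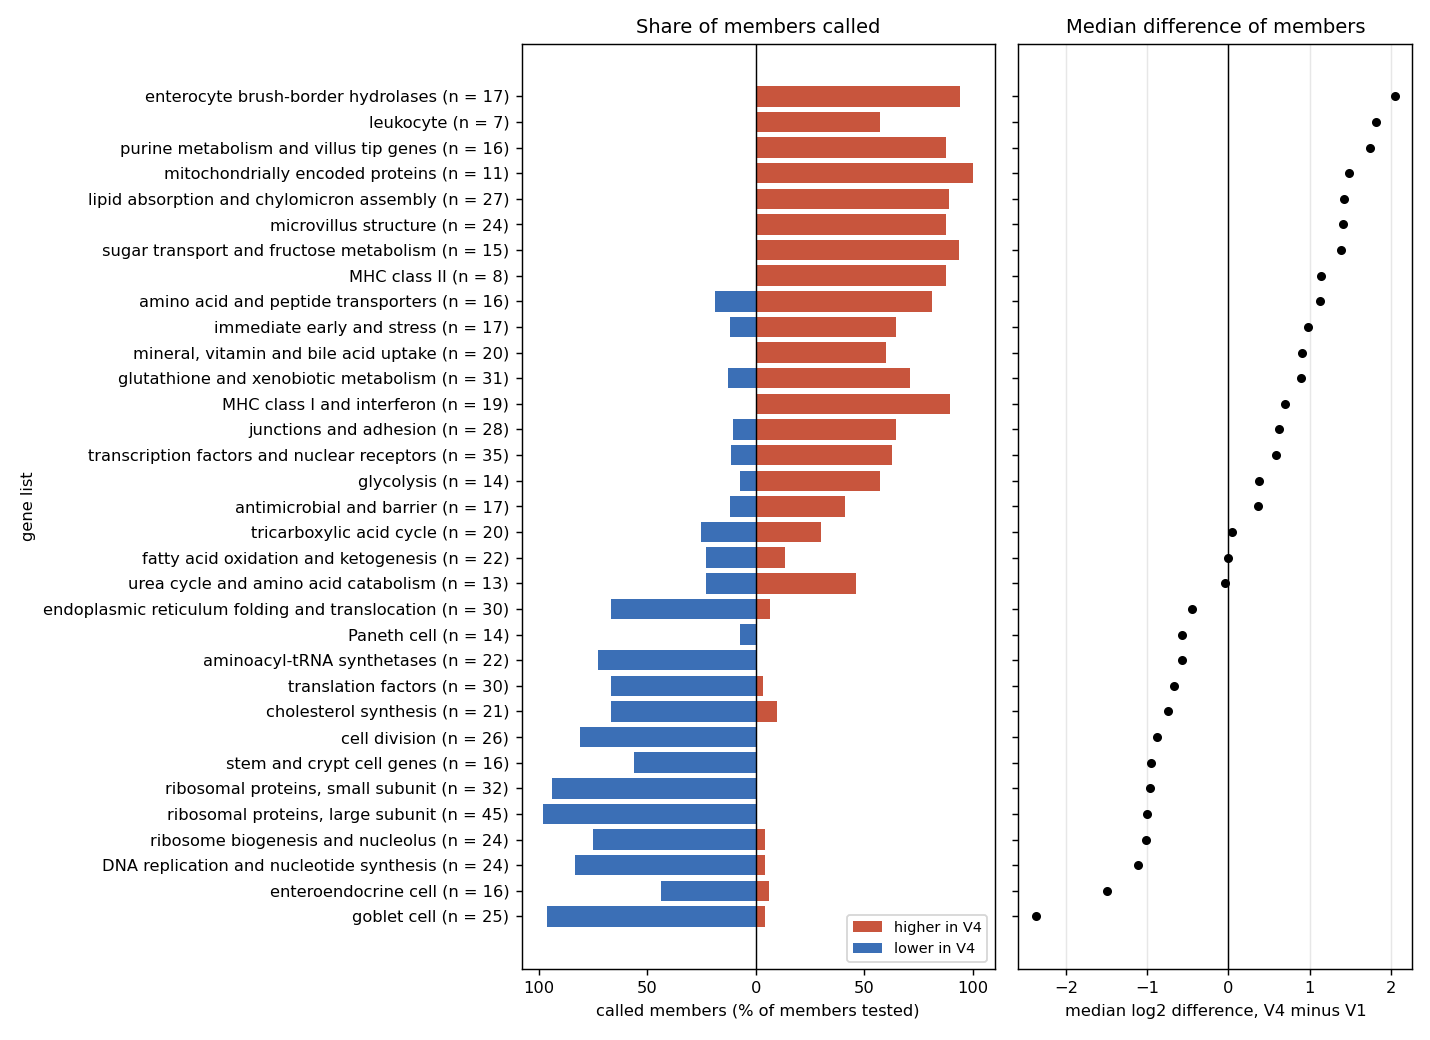
Share of tested members called higher (red) or lower (blue) in V4 for each gene list with at least 5 tested members (left, percent of members tested), and the median log2 difference of the members (right). Brush-border hydrolases have the highest median, 2.04, and goblet cell genes the lowest, -2.36. The median of all genes was -0.02.

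Mitochondrially encoded transcripts were higher in V4 in 11 of 11 protein genes (median 1.49). Together with the other transcripts of the mitochondrial genome they took 3.31% ± 0.886 of the UMIs in V1 and 9.45% ± 2.87 in V4 (SD, n = 4). mt-Co1, a subunit of cytochrome c oxidase, had 547, 616, 454 and 492 CPM in V1 and 1721, 2381, 2235 and 1834 CPM in V4 (1.97 ± 0.17). mt-Cytb, the most abundant, had 9136, 10565, 15693 and 21244 and 26247, 28684, 43397 and 37144 CPM (1.29 ± 0.18). Neither overlapped between zones. The complex I genes mt-Nd5, mt-Nd2 and mt-Nd1 rose by 1.68 ± 0.15, 1.49 ± 0.15 and 1.12 ± 0.13. Reads from copies of these genes in the nuclear genome were not told apart.

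With TMM scaling the nuclear genes of mitochondrial fuel use were called in both directions, as were all genes tested (25.6% higher and 24.8% lower). Of 20 genes of the tricarboxylic acid cycle, 6 were higher in V4 (30%) and 5 lower (25%, median 0.04), near the shares of all genes. Cs, citrate synthase, had 228, 206, 275 and 331 CPM in V1 and 381, 522, 451 and 594 CPM in V4 (0.91 ± 0.12). Ogdh and Dlst, subunits of the oxoglutarate dehydrogenase complex, rose by 1.13 ± 0.15 and 0.83 ± 0.14, and the abundant malate dehydrogenase Mdh2 by 0.44 ± 0.12, which total UMI scaling reduced to 0.11 (adjusted p = 0.426). Idh3b, a subunit of NAD-linked isocitrate dehydrogenase, had 202, 206, 213 and 209 and 142, 167, 121 and 128 CPM and fell (-0.57 ± 0.11). With total UMI scaling 10 of the 20 were lower and the median was -0.28. Of 22 genes of fatty acid oxidation and ketogenesis, 3 were higher (13.6%) and 5 lower (22.7%, median -0.01), both below the shares of all genes. Hadh, an enzyme of beta-oxidation, rose by 0.90 ± 0.12. In this list the counts moved to 1 higher and 2 lower without mouse as a block, and to 1 higher and 11 lower of 22, with a median of -0.33, with total UMI scaling. Of 13 genes in the list of the urea cycle and amino acid catabolism, 6 were higher and 3 lower (median -0.04). The alanine aminotransferase Gpt rose by 1.76 ± 0.14. The list also holds Gda, guanine deaminase, which acts on a purine and not on an amino acid. Gda had 63.8, 60.6, 202 and 171 CPM in V1 and 419.6, 464, 1072 and 839 CPM in V4 (2.56 ± 0.14). With total UMI scaling 3 of the 13 were higher and 5 lower (median -0.36). Aldh18a1, which starts proline and ornithine synthesis, fell (-0.76 ± 0.15). Of 14 glycolysis genes, 8 were higher and 1, Aldoa, lower (median 0.38). The pyruvate kinase Pklr rose by 1.25 ± 0.16, Gapdh by 1.02 ± 0.16 and Tpi1 by 0.75 ± 0.12, and Ldha, the most abundant, had 1374 ± 208 and 1620.3 ± 129.5 CPM and was not called. Without the block 4 of the 14 were higher.

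Genes of protein synthesis were mostly lower in V4. Of the ribosomal proteins of the large subunit, 44 of 45 were lower and 0 higher (median -1.001), and of the small subunit 30 of 32 were lower and 0 higher (median -0.97). The summed level of the large-subunit genes was 31216, 31223, 27942 and 35567 CPM in V1 and 20049, 16858, 11934 and 15539.6 CPM in V4. The sum was lower in V4 of every mouse, and the zones did not overlap. Rplp0, the most abundant large-subunit gene, had 2860.1, 3311, 2449 and 3231 CPM in V1 and 1785, 1800.0, 801 and 1426 CPM in V4 (-1.07 ± 0.14). Rpl3 had 1699, 1953, 889.6 and 1115 CPM in V1 and 713, 916, 252 and 407 CPM in V4. Within each mouse V4 was lower, by -1.39 ± 0.13 in the model, while V4 of mouse 2 lay above V1 of mouse 3. The 3 genes not called were Rplp1, Rps15 and Fau (-0.59, -0.66 and 0.08). Rplp1 and Rps15 were called lower without mouse 1 (-0.88, adjusted p = 0.0021 and -1.14, adjusted p = 0.00154). Fau, which encodes a ubiquitin-like protein fused to the ribosomal protein S30, had 1020.3, 744, 1041 and 1319 CPM in V1 and 1104, 1039, 1022 and 1155 CPM in V4. Ribosomal protein genes have many processed copies in the genome, and the counts do not separate their reads.

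The other lists of the translation machinery moved in the same direction. Ribosome biogenesis was lower in 18 of 24 genes and higher in 1 (median -1.01), translation factors were lower in 20 of 30 and higher in 1 (median -0.67), and aminoacyl-tRNA synthetases lower in 16 of 22 and higher in 0 (median -0.58). Nop10, a protein of H/ACA ribonucleoprotein particles, had 141, 169, 146 and 149.8 CPM in V1 and 86.97, 72.3, 41.9 and 78.97 CPM in V4 (-1.13 ± 0.15). Npm1, the abundant nucleolar chaperone, fell by 1.04 and the rRNA methyltransferase Fbl by 1.30 on the log2 scale. Eef1a1, the elongation factor that brings tRNA to the ribosome, had 1236, 1397, 1318 and 2152 and 904, 857, 618 and 1017 CPM (-0.83 ± 0.13). Wars, the tryptophanyl-tRNA synthetase, had 104, 205, 121 and 106 and 42.3, 46.3, 36.95 and 42.2 CPM and the lowest adjusted p of its list (-1.63 ± 0.16, adjusted p = 1.18e-10). The 2 genes that rose were Eif6, which keeps the ribosomal subunits apart, and the helicase Eif4a2. Eif6 had 355, 373, 364 and 338 CPM in V1 and 471, 588, 542 and 569 CPM in V4 (0.60 ± 0.12), without overlap. Without the block 8 of the 22 synthetases were lower.

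Endoplasmic reticulum folding and translocation genes were lower in 20 of 30 cases and higher in 2 (median -0.45). Pdia6, a protein disulfide isomerase, had 161, 208, 194 and 155 CPM in V1 and 69.9, 91.01, 43.5 and 46.3 CPM in V4 (-1.500 ± 0.16). The related Pdia4 fell by 1.01 on the log2 scale, and the translocon genes Ssr2 and Sec61g fell by 0.75 and 0.67. Hspa5, the chaperone BiP, had 369, 464, 325 and 356 and 247, 290.1, 178 and 233 CPM (-0.67 ± 0.11). P4hb, the most abundant disulfide isomerase, which also serves as a subunit of the microsomal triglyceride transfer protein, went the other way, with 904, 965, 1516 and 1547 CPM in V1 and 1641, 1712, 1952 and 2372 CPM in V4 (0.66 ± 0.12). Ero1lb, an oxidase of the same compartment and a low gene, was the other one called (1.03 ± 0.39), and its call ended without mouse 2 (0.73, adjusted p = 0.158), without mouse 3 (1.12, adjusted p = 0.0577), without V4 of mouse 1 (0.93, adjusted p = 0.0736) and with total UMI scaling (0.71, adjusted p = 0.124).

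The promoters of Hspa5 and Pdia6 are shown because they hold the endoplasmic reticulum stress element, CCAAT and CCACG with 9 bases of any kind between them, searched on both strands (capitals), in the same RefSeq window on GRCm38.p6. Hspa5 lies at chr2:34771840-34772139 with the match 65 bases before the start, and Pdia6 at chr12:17266339-17266638 with the match 98 bases before it, both on the plus strand.
Hspa5: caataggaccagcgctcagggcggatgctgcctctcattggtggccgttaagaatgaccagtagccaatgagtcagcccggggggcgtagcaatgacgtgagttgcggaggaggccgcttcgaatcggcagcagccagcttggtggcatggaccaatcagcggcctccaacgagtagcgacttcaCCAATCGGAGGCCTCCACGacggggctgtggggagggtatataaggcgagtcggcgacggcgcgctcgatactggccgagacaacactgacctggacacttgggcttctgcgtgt
Pdia6: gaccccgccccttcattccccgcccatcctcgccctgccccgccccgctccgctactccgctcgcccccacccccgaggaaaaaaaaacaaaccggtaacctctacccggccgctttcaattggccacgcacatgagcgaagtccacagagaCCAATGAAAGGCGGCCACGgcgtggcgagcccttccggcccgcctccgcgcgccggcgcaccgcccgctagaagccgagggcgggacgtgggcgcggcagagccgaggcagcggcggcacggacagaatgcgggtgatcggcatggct
The element was in 11 of the 6641 promoters (0.166%), in 0 of 1761 genes higher in V4, in 7 of 1454 lower in V4 (0.481%), and in 7 of the 23 members of the endoplasmic reticulum list that have a promoter in the table (30.4%). This list was in view when the element was chosen.
In all, 7 motifs were searched in these windows with the data in view, and these 2 were chosen after their shares were seen. The motif of SREBP (TCACNCCAC) was in 1.46% of all promoters, 1.76% of genes higher and 1.03% of genes lower in V4, and in 1 of 16 cholesterol synthesis genes. That of E2F (TTTGGCGC) was in 1.19%, 1.14% and 0.963%, and in 4 of 20 replication genes. That of CDX2 (TTTATGGC) was in 0.587%, 0.795% and 0.688%. The cell cycle homology element (TTTGAATT) was in 1.04%, 0.909% and 1.03%, and in 3 of 18 cell division genes, and that of HNF1 was in 4 promoters of all. No test was run on any of these shares.

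Cholesterol synthesis was lower in 14 of 21 genes and higher in 2 (median -0.75). Cyp51, lanosterol demethylase, had 37.9, 54.3, 58.2 and 52.9 CPM in V1 and 16.5, 16.3, 8.21 and 10.9 CPM in V4 (-1.89 ± 0.22), and Fdft1, squalene synthase, had 42.7, 61.2, 51.96 and 51.1 and 12.9, 29.3, 7.39 and 19.1 CPM (-1.63 ± 0.20). Hmgcs1 and Sqle, which act before and after squalene, fell by 1.34 and 1.31 on the log2 scale, and neither gene overlapped between zones. Sc5d, of a late step, rose (0.73 ± 0.13). Without mouse 3, 9 of the 21 genes were lower.

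Dividing and crypt cell genes were lower in V4, from low levels. Cell division was lower in 21 of 26 genes and higher in 0 (median -0.88), DNA replication and nucleotide synthesis lower in 20 of 24 and higher in 1 (median -1.11), and stem and crypt cell genes lower in 9 of 16 and higher in 0 (median -0.95). The summed cell division genes had 1276, 1763, 1148 and 1164 CPM in V1 and 853, 909, 511 and 585 CPM in V4. Ccnd2, cyclin D2, had 244, 344, 226 and 190.3 and 155, 134, 122 and 54.5 CPM (-1.10 ± 0.17), and Ccnb2, cyclin B2, had 48.5, 51.5, 28.5 and 46.4 and 21.2, 24.4, 12.3 and 12.3 CPM (-1.31 ± 0.22). Both were below V1 in V4 of every mouse, without overlap. Impdh2, the rate-limiting enzyme of guanine nucleotide synthesis, fell by 1.52, and the replicative helicase subunit Mcm6 by 1.39 on the log2 scale. Prom1, a surface protein of crypt cells, fell by 1.22, and the crypt transcription factor Sox9 had 42.2, 74.9, 11.1 and 9.51 CPM in V1 and 15.3, 21.1, 4.11 and 8.17 CPM in V4 (-1.43 ± 0.29). Mice 1 and 2 had several times more Sox9 than mice 3 and 4 in V1. The stem cell marker Lgr5 and the proliferation marker Mki67 had 13.9 ± 4.44 and 6.18 ± 0.762 CPM in V1 and were not called (-0.05 ± 0.31 and -0.30 ± 0.48). Without mouse as a block, 12 cell division, 10 replication and 4 stem and crypt genes were lower.

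Goblet cell transcripts fell along with all of these lists. Of 25 goblet genes, 24 were lower in V4 and 1 higher (median -2.36), and their sum was 51348, 100063, 99219 and 59247 CPM in V1 and 13339.8, 16539.5, 15437 and 13823 CPM in V4. Mice 2 and 3 had the higher sums in V1, while V4 was even among mice. As a share of all UMIs they went from 8.77% ± 2.80 to 1.35% ± 0.159 (SD, n = 4). Their part in the falls of the translation, endoplasmic reticulum, cholesterol and division lists was not tested. The transcription factors of the lineage fell with the secreted products. Foxa3 had 105, 174, 114 and 47.6 CPM in V1 and 19.98, 24.4, 15.6 and 16.3 CPM in V4 (-2.47 ± 0.22), and Atoh1, which sets the secretory fate, had 64.3, 124, 79.2 and 49.3 and 25.9, 33.3, 8.21 and 12.3 CPM (-1.93 ± 0.23). The protease Capn9 fell by 2.25 on the log2 scale. The 1 goblet list gene that rose was Muc13 (0.89 ± 0.12), a transmembrane mucin that enterocytes carry as well.

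Enteroendocrine genes were lower in 7 of 16 cases (43.8%) and higher in 1 (6.25%, median -1.50), beside 24.8% and 25.6% of all genes. Their sum was 2387, 2321, 3009 and 2131 CPM in V1 and 753, 262, 1005 and 742 CPM in V4. The sum did not stay low above V4, with 691 ± 310 CPM in V4 and 6666 ± 1740 CPM in V6. In 11 of the 16 genes the change from V1 to V4 was called below that from V4 to V6, beside 9.96% of all genes. Besides Gip and Gcg, the hormone genes Sct, secretin, and Pyy, peptide YY, fell. Sct had 294, 387, 611 and 316 CPM in V1 and 219, 52.01, 155 and 206 CPM in V4 (-1.44 ± 0.38, not called without mouse 3, adjusted p = 0.0639), and Pyy had 63.2, 125, 120.0 and 32.1 and 4.11, 0, 9.03 and 2.72 CPM (-4.52 ± 0.88, adjusted p = 0.000478). V4 of mouse 2 was the lowest for both. Chga, chromogranin A, was higher in V4 (54.8, 24.6, 37.1 and 42.8 CPM in V1 and 113, 88.6, 78.8 and 47.7 CPM in V4, 1.08 ± 0.38), and its call ended without mouse 1, 2 or 3 (adjusted p = 0.0712, 0.147 and 0.0983) and with total UMI scaling (adjusted p = 0.0757). With the V1 and V4 libraries fitted alone, or without mouse 3, 4 of the 16 genes were lower. Of 14 Paneth cell genes 1, Nupr1, a stress protein of several cell types, was lower (-1.98 ± 0.34). The sum of the list was 24957, 23565, 16295 and 7349.7 CPM in V1 and 32516, 10531, 9232 and 3006 CPM in V4, lower in V4 of mice 2, 3 and 4 and higher in V4 of mouse 1. Defa24, a Paneth cell defensin with close copies, had 11036, 11045, 7365 and 3178 and 12923, 4223, 3111 and 1021 CPM and was not called. With the 8 libraries fitted alone 6 of the 14 were lower, and with no filter 11 were, Defa24 among them in both (adjusted p = 0.00319 and 9.06e-09). Of 4 tuft cell genes tested, 1, Trpm5, was higher (2.46 ± 0.58) and 3 were not called (median 0.11). The sum of the tuft list was low. It was 27.4, 5.15, 11.1 and 16.6 CPM in V1 and 9.99, 21.1, 37.8 and 24.5 CPM in V4, lower in V4 of mouse 1.

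**Figure D3:**
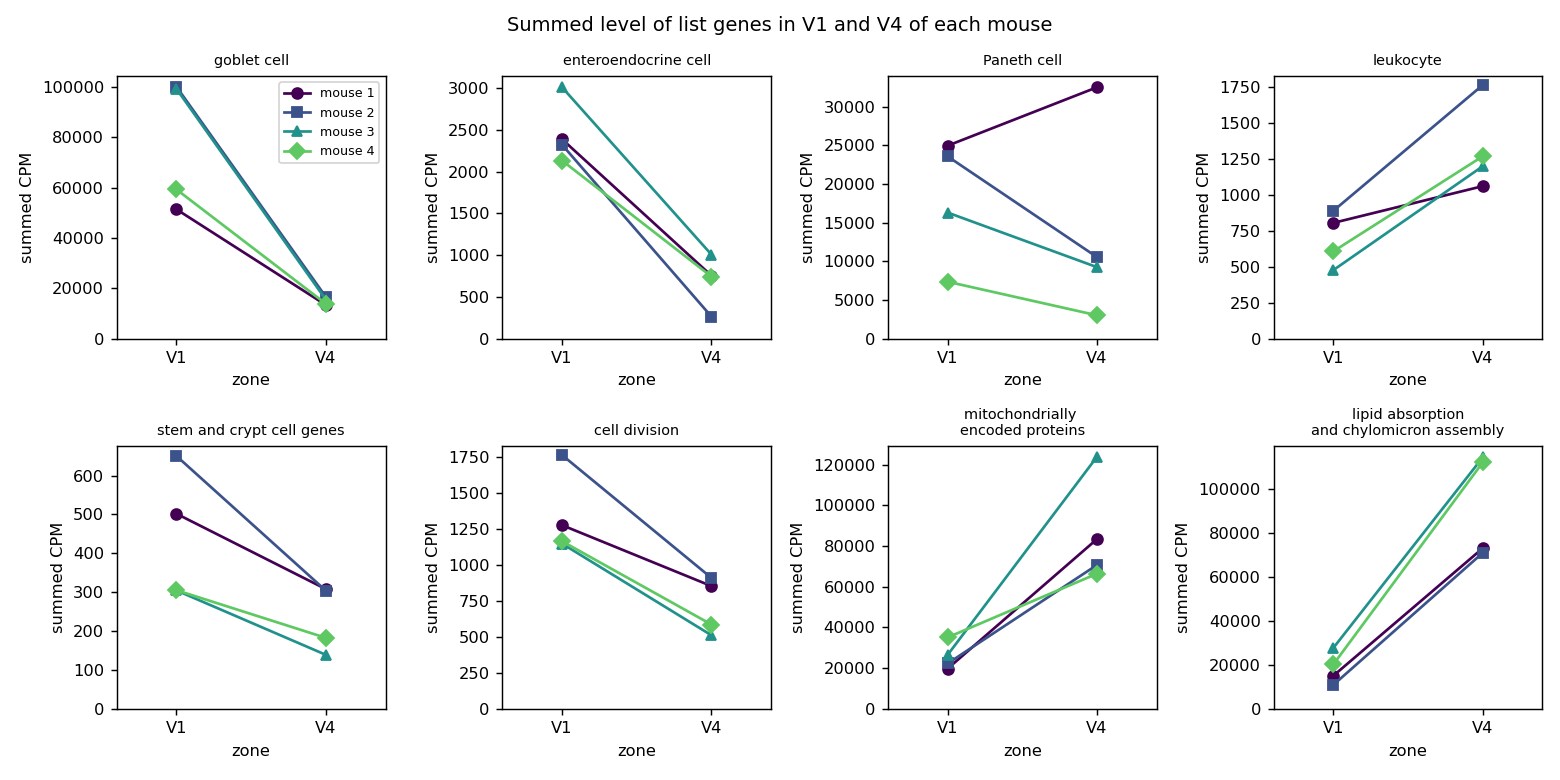
Summed CPM of the genes of 8 lists in V1 and V4 of each mouse, each mouse a line, axes starting at 0. Goblet, enteroendocrine, stem and cell division sums are lower and mitochondrial, lipid and leukocyte sums higher in V4 of all 4 mice. The Paneth sum is higher in V4 of mouse 1 and lower in the other mice.

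Genes of antigen presentation rose. MHC class II presentation was higher in 7 of 8 genes and lower in 0 (median 1.14), and MHC class I and interferon genes were higher in 17 of 19 and lower in 0 (median 0.69). H2-Ab1, a class II chain, had 291, 441, 395 and 620.1 CPM in V1 and 766, 1134, 1545 and 2383 CPM in V4 (1.67 ± 0.13), and H2-Aa had 93.3, 194, 129 and 251 and 313, 622, 642 and 1097 CPM (1.96 ± 0.14). Mouse 4 was highest in each zone, and the zones did not overlap. B2m, the light chain of class I, had 1231, 1244, 2183 and 1926 and 3258, 3329, 5682 and 4918 CPM (1.39 ± 0.13). The interferon-induced genes Isg15 and Irf7 rose by 1.97 ± 0.21 and 1.26 ± 0.15. Ciita, the master regulator of class II genes, was not called (0.16 ± 0.62). With total UMI scaling 11 of the 19 class I and interferon genes were higher. Reads of the closely related H2 genes may be split between copies.

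Of 7 leukocyte genes tested, 4 were higher in V4 and 0 lower (median 1.82), with a summed list of 805, 889, 476 and 607 CPM in V1 and 1061, 1765, 1199.7 and 1269 CPM in V4. Most of that sum was Cd74, the class II invariant chain, which is in the class II list as well (597, 702, 311 and 525 CPM in V1 and 711, 1620.4, 961 and 1167 CPM in V4). The lymphocyte genes Ccl5, Nkg7 and Gzmb had 13.2 ± 13.1, 0.767 ± 1.17 and 0.756 ± 0.783 CPM in V1 and 57.4 ± 26.8, 5.40 ± 3.26 and 3.98 ± 2.23 CPM in V4. With the V1 and V4 libraries fitted alone, 4 genes could be tested, of which 3 were higher and 1 lower. Without mouse 1, 2 of the 4 were called, and the calls of Ccl5 and Gzmb ended (adjusted p = 0.138 and 0.104). The T cell receptor chain genes Cd3e and Cd3g and the pan-leukocyte gene Ptprc were too low to test, with 11, 17 and 9 UMIs over the 4 libraries of V4 together and 4, 4 and 3 in V1. The part of leukocytes in the rise of the class II list was not tested. Of 14 stromal and endothelial markers, 0 passed the filter on low counts.

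Antimicrobial and barrier genes were higher in 7 of 17 cases (41.2%) and lower in 2 (11.8%, median 0.36), beside 25.6% and 24.8% of all genes. Pigr, which carries IgA across the epithelium, had 1526, 1694, 1735 and 1705 CPM in V1 and 2701, 5241, 3148 and 2690.5 CPM in V4 (1.03 ± 0.14), and Gsdmd, gasdermin D, had 122, 136, 180.0 and 199 and 424, 573, 573 and 632 CPM (1.80 ± 0.14). Duox2 and Duoxa2, the dual oxidase and its maturation factor, rose by 1.504 ± 0.22 and 1.22 ± 0.18. The antibacterial lectin Reg3b, the most abundant of the list, had 16386, 12670.4, 27717 and 28809.5 and 21769, 28870.3, 20531 and 27334 CPM, overlapping, and was not called (0.20 ± 0.21). The 2 genes that fell were Lypd8, which keeps flagellated bacteria off the epithelium (5107 ± 2129 and 2691 ± 522 CPM, -0.85 ± 0.15), and S100a6, a calcium-binding protein (-1.74 ± 0.40). Without the block 3 genes of the list were higher.

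Immediate early and stress genes were higher in 11 of 17 cases and lower in 2 (median 0.97). Jun had 25.3, 41.7, 18.6 and 11.9 CPM in V1 and 128, 101, 174 and 105 CPM in V4 (2.34 ± 0.33), and Zfp36, which speeds the decay of cytokine messages, had 41.6, 55.5, 57.5 and 44.00 and 146, 129, 165 and 144 CPM (1.54 ± 0.19). Klf6 and Junb, both transcription factors, rose by 1.64 ± 0.20 and 0.97 ± 0.13, and the zones did not overlap in any of these 4 genes. Myc and Ier2 fell (-1.27 ± 0.26 and -0.56 ± 0.13). Myc also belongs to the stem and crypt list. These genes are also known to respond to tissue dissociation, whose part was not tested. The purine metabolism and villus tip list was higher in 14 of 16 genes and lower in 0 (median 1.74), and without Nt5e, a gene of the sort, in 13 of 15 (median 1.73). Besides Ada and Enpp3, Lgals3, galectin-3, had 285, 335, 539 and 506 CPM in V1 and 1361, 1194, 2643 and 2164 CPM in V4 (2.11 ± 0.17). Krt20, the keratin of mature enterocytes, went from 1190.1 ± 218 to 3377 ± 237 CPM (1.51 ± 0.15), and the nucleoside carrier Slc28a1 from 11.2 ± 4.93 to 45.5 ± 6.05 CPM (2.02 ± 0.21).

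Cell junction and adhesion genes were higher in 18 of 28 cases and lower in 3 (median 0.62). Lama3, a laminin chain of the basement membrane, had 1.58, 1.72, 2.47 and 3.57 CPM in V1 and 15.9, 11.4, 40.2 and 21.8 CPM in V4 (3.13 ± 0.35). Ceacam1 (1.18 ± 0.13), the catenin Ctnnd1 (0.96 ± 0.14), the tight junction protein Cgn (1.05 ± 0.17) and the abundant Epcam (0.78 ± 0.13) rose. Cldn2, a claudin that forms a cation pore and is known from the crypt, had 38.5, 54.3, 30.3 and 28.5 and 25.9, 29.3, 6.57 and 9.53 CPM (-1.08 ± 0.22), and Cldn3 and Tjp3 fell by 0.30 and 0.26 on the log2 scale. In 9 of the alternatives, among them the model without the block, 1 of these 3 falls was called, and with total UMI scaling 11 of the 28 genes were higher.

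Transcription factors and nuclear receptors were higher in 22 of 35 cases and lower in 4 (median 0.58). The xenobiotic receptor Nr1i3 rose by 1.20 ± 0.15. Cdx1, an intestinal homeobox factor, had 374, 435, 255 and 231 CPM in V1 and 195, 228, 93.6 and 109 CPM in V4 (-1.07 ± 0.13). It was higher in mice 1 and 2 than in mice 3 and 4 in each zone and fell in every mouse, while its relative Cdx2 had 87.5 ± 13.2 and 93.9 ± 19.7 CPM and was not called (0.08 ± 0.13). The other genes that fell, Klf5, Hes1 and Elf3, differed by -0.43 ± 0.15, -0.55 ± 0.19 and -0.37 ± 0.13, and without mouse as a block, or without mouse 2 or mouse 4, only the fall of Cdx1 was called. In glutathione and xenobiotic metabolism, 22 of 31 genes were higher and 4 lower (median 0.89). Cyp2d26 had 62.2, 41.7, 82.9 and 62.4 CPM in V1 and 268, 224, 449 and 328 CPM in V4 (2.35 ± 0.13), Cyp2b10 rose by 2.65 ± 0.17 and Ces2e, a carboxylesterase and the most abundant of the list, by 1.38 ± 0.13. Gsta4, a glutathione transferase for lipid peroxidation products, fell from 162 ± 61.1 to 42.1 ± 17.7 CPM (-1.95 ± 0.18), and the peroxidase Gpx1 from 1067 ± 97.8 to 521 ± 162 CPM (-1.09 ± 0.15).

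The zones between V1 and V4 show how the change was spread over the steps. Of 9328 genes tested in the same model, 858 were higher and 534 lower from V1 to V2. From V2 to V3 the counts were 280 and 167, and from V3 to V4 180 and 18. These counts do not give the size of the change, and the lists differ in where most of it lay. On the log2(CPM + 1) scale, the 12 largest rises had covered a median of 35.3% of their V1 to V4 difference at V2 and 69.4% at V3. The 12 largest falls had covered 35.8% at V2 and 95.4% at V3. By list, goblet genes had a median of -0.86 at V2, -2.09 at V3 and -2.29 at V4 relative to V1. Brush-border hydrolases were at 1.14, 1.67 and 2.02, and sugar transport at 0.90, 1.22 and 1.31. Immediate early genes were at -0.06 at V2 and 0.10 at V3 and reached 0.96 at V4. Enteroendocrine genes were at 0.00 at V2, -1.08 at V3 and -1.27 at V4. Other falling lists were still going down from V3 to V4. At V2, V3 and V4, cell division was at -0.27, -0.42 and -0.83 and ribosome biogenesis at -0.45, -0.52 and -0.96. Aminoacyl-tRNA synthetases were at -0.10, -0.29 and -0.61, and large-subunit ribosomal proteins at -0.35, -0.70 and -0.97. These medians describe the zones and were not tested against each other.

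**Figure D4:**
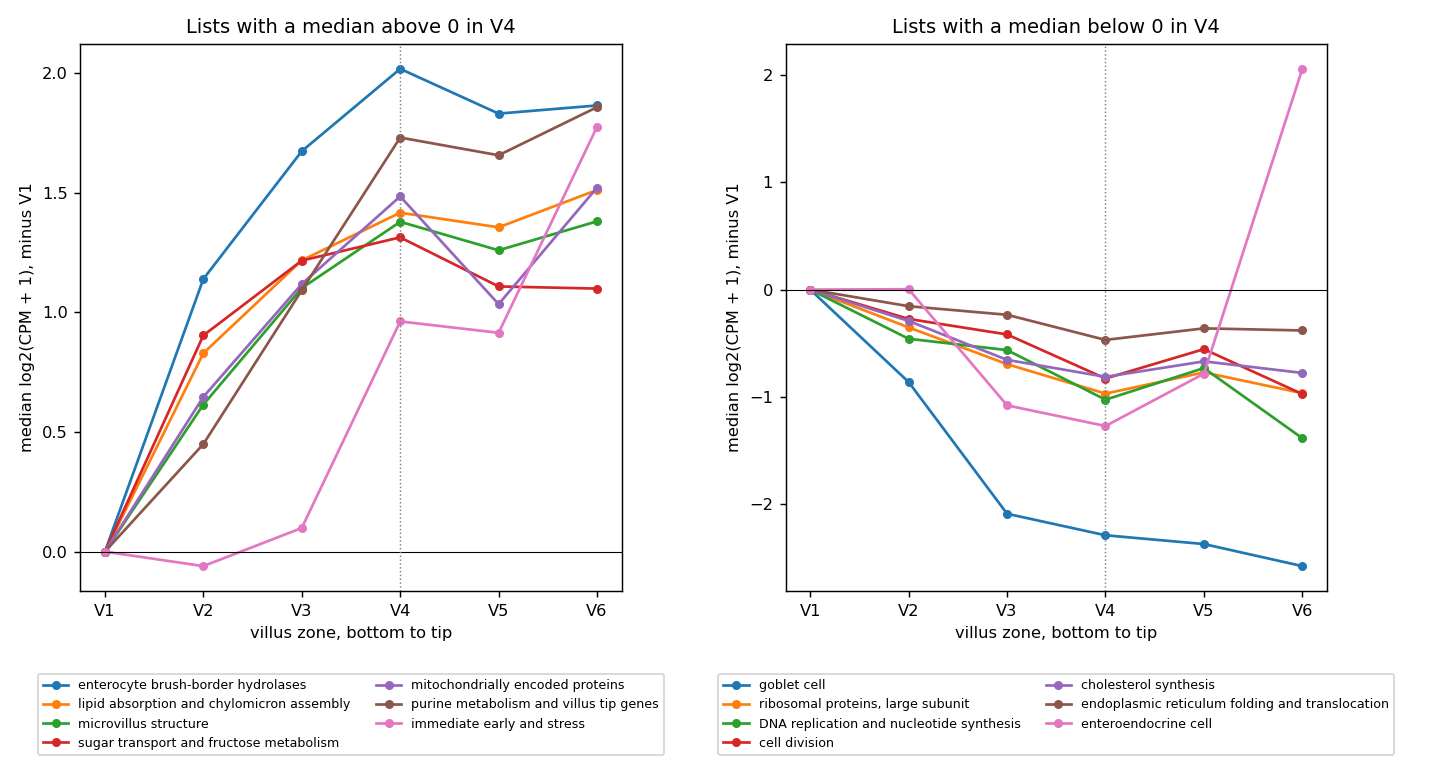
Median log2(CPM + 1) relative to V1 over the tested genes of 14 lists in each zone from V1 to V6, with V4 marked by a dotted line and n from 11 to 45 genes per list. Most lists of absorption and the goblet list have covered most of their V1 to V4 change by V3, while the immediate early list is near 0 until V3 and reaches 0.96 in V4.

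The change below V4 was set against the change above it, V6 minus V4, by testing the difference of the 2 differences in the same model. Both share the V4 libraries. It was above 0 in 1267 of the 9328 genes (13.6%) and below 0 in 929 (9.96%). These counts were 469 and 224 without mouse as a block, 777 and 443 without mouse 3, and 928 and 538 without mouse 4. With total UMI scaling they were 782 and 1609, so the balance between the directions depends on the scaling. Above V4 itself, 126 genes were higher in V6 (1.35%) and 6 lower (0.0643%). The genes with the smallest adjusted p above 0 were Slc6a19, Gda, Sectm1b, Treh, Apoc3 and Espn. Slc6a19 had 2.96 from V1 to V4 and -0.20 from V4 to V6, a difference of 3.16 ± 0.23 (adjusted p = 1.15e-11). Sectm1b, a secreted and transmembrane protein, had 94.3, 89.8, 152 and 112 CPM in V1 and 423, 411, 567 and 726 CPM in V4, and 2.24 below V4 against -0.43 above it. Apoc3 was at 4427 ± 2134 CPM in V4 and 4750.4 ± 1993 CPM in V6. In each of these the lower change was a rise that the upper zones did not continue at that size.

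In the other direction the smallest adjusted p were those of Myl7, Krt18, Lgals2, Hepacam2, Txndc5 and Selm, and 2 patterns stand among them. Myl7 (ENSMUSG00000020469, chr11:5896637-5898782), an atrial myosin light chain, was lowest in the middle, with 70.6, 85.8, 82.9 and 79.1 CPM in V1, 17.6, 18.7, 17.2 and 14.98 CPM in V4 and 91.4 ± 27.97 CPM in V6. It was tight among mice, fell by 2.20 on the log2 scale below V4 and rose by 2.38 above it, a difference of -4.58 ± 0.36 (adjusted p = 2.76e-11). Hepacam2 was at 21.3 ± 12.7 CPM in V4 and 56.8 ± 18.3 CPM in V6. Krt18, a keratin of simple epithelia, had 636, 1099.7, 749 and 546 CPM in V1 and 226, 293, 178 and 184 CPM in V4 (-1.77 ± 0.14), and Lgals2, galectin-2, had 7084, 8937, 6921 and 5601 and 2574, 3108, 1296 and 1721 CPM (-1.77 ± 0.14). Their changes from V4 to V6 were 0.56 and 0.30 (adjusted p = 0.0222 and 0.509). Txndc5, a disulfide isomerase of the endoplasmic reticulum, and Selm, a selenoprotein there, fell by 1.83 and 2.20 below V4, with 0.02 and 0.56 above it. Goblet transcripts fell over the same zones as these genes, and their part was not tested.

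**Figure D5:**
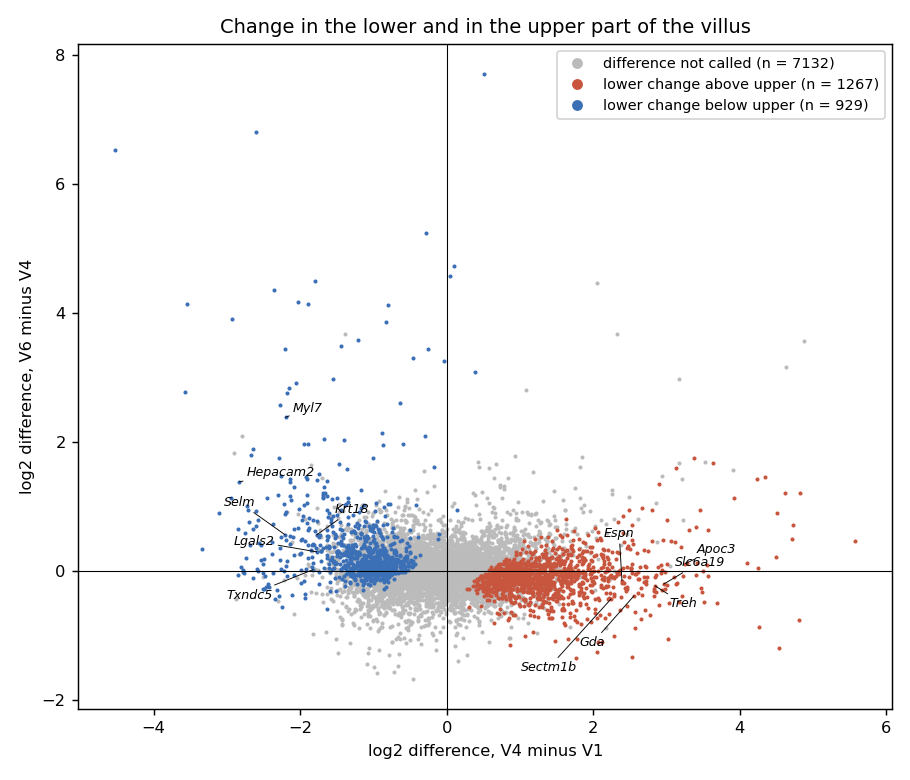
Log2 difference V4 minus V1 (horizontal) and V6 minus V4 (vertical) of the 9328 genes, coloured where the difference of the 2 changes was called. Most genes spread more along the horizontal axis than along the vertical one, and Myl7 lies in the quadrant of genes that are lowest in V4. Both axes use the V4 libraries.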

How the data were processed

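Bulk mcSCRB-seq libraries of 8 of the 24 samples, zones V1 and V4 of 4 mice, were compared, with V2, V3, V5 and V6 used for the shared spread and for context. In the table the authors deposited, values are raw UMI counts for 17811 gene identifiers, of which 131 had none. The submitters' processing notes name bcl2fastq 2.15.0.4 and GRCm38. Not given in the sources used here were the aligner, annotation and filters. How many cells each library held is not in the labels.

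The analysis used edgeR 4.0.16 (R 4.3.3). After filterByExpr with zone as the group (counts of 10, total of 15), 9328 genes stayed, with TMM scaling. A quasi-likelihood model (robust, 15 residual degrees of freedom) of all 24 libraries with zone and mouse gave V4 minus V1, V6 minus V4, their difference and the steps between zones. Calls used Benjamini-Hochberg adjusted p under 0.05. SE is the log2 difference divided by the square root of its F statistic. The same mouse gave all 6 zones, so mouse was a block. V1 and V4 deviations from their zone means correlated within mice (r from 0.32 to 0.507, mean 0.428), and each library correlated best with its own mouse in 4 of 4 cases for both zones. Over genes with at least 20 counts in a pair, chi-square per degree of freedom was 7.5 to 25.5 between libraries of 1 zone, so none were copies. Depth of 806541 to 1822822 UMIs limits precision among low genes.

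The comparison and its 35 gene lists were chosen with earlier results of these data known, and the 7 motifs after the data were seen. Named were the 12 largest called log2 rises and falls (mean of 50 CPM or more, 1 direction in 4 of 4 mice, no provisional name), up to 4 members of each list with the smallest adjusted p and its most abundant one, and for the difference of changes the 6 smallest adjusted p in each direction. Some genes the rule selects are described only by their counts or are not reported here. Coordinates came from GENCODE M21, which matched 17741 identifiers, and promoters from RefSeq on GRCm38.p6 (6641 tested genes).

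On simulated counts of 9211 genes for V4 minus V1, 71% of 100 genes with a true log2 change of 1 and 96% of 100 with one of 2 were recovered, with 8 false calls (4.57% of calls), and 0 genes were called when no gene was changed. Only these few genes were changed there, in V4 alone, while 50.4% were called in the data, so the rates need not hold here. Alternatives were no block, the 8 libraries alone, DESeq2 size factors, total UMI scaling, scaling without goblet or mitochondrial genes, no filter, a filter at a mean of 50 CPM, thinning to 806541 UMIs, limma-voom (limma 3.58.1), DESeq2 1.42.0, and leaving out each mouse or library. Python 3.11.15 with numpy 2.4.6, pandas 2.3.3 and matplotlib 3.10.9 was used for positions, motifs and figures.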

Additional observations from a re-analysis of the deposited data

Results flagged for a closer look

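In 10 of 454 groups of 4 libraries of 1 zone, 1 library stood apart from the other 3, by a gap to its nearest neighbour, as a share of the range of the group, above Dixon's 95% critical value. Chance gives about 1 in 20 such groups. In 4 of the 10 it was mouse 3 that was highest. Ceacam1, an adhesion molecule, had 95.4, 88.1, 161 and 95.1 CPM in V1 (gap 0.9 of the range) and 184, 197, 426 and 215 CPM in V4 (0.871), and its rise within mice was called. Clca4a had 14.2, 10.9, 41.4 and 16.1 CPM in V1 (0.83), and Cyp3a11 had 19.5, 17.2, 76.7 and 26.2 CPM in V1 (0.849).

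The other cases lay in different mice. Mouse 1 had the highest Lgr5 level in V4 (21.7, 10.6, 10.7 and 10.9 CPM, gap 0.971 of the range) and the lowest glycolysis sum in V4 (4532, 5148, 5216 and 5268 CPM, 0.837). Mouse 2 had the lowest Mdh2 level in V1 (1467, 1055, 1505 and 1517 CPM, 0.891) and the highest Wars level in V1 (104, 205, 121 and 106 CPM, 0.833). Mouse 4 had the highest V4 level of Slc9a3r1 (742, 759.8, 758 and 909.5 CPM, 0.891) and of Tjp3 (109, 109, 108 and 121 CPM, 0.961).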

How the results depend on the processing

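Of the 192 genes named with V4 minus V1, 0 changed direction among those called in the main model or in the alternative. For genes called in neither, the direction was not compared. Without mouse as a block (the pairing of zones by mouse), 174 stayed on the same side of the threshold and 18 were no longer called: Duox2, Duoxa2, Slc39a4, Slc3a2, Gapdh, Fth1, Myc, Sox9, Gzmb, Hnf4g, Slc38a2, Ero1lb, Elf3, Hes1, Klf5, Cldn3, Tjp3 and Rpl3-ps1. The model without the block called 3403 genes in place of 4703, 3401 of them shared, and 693 for the difference between the lower and the upper change in place of 2196 (469 above 0 and 224 below). At most 7 named genes lost their call in any other alternative. The 12 genes named for the difference of changes kept their side in each fit that could give it, which the 8 libraries alone could not.

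The counts for V4 against V1 moved by over 1.5 times with total UMI scaling (1482 higher and 3650 lower) and with a mean of at least 50 CPM (1904 called of 2707 tested, 964 higher and 940 lower). For the difference of changes they moved to 782 above and 1609 below with total UMI scaling, and to 1300 called and 635 above with at least 50 CPM. Leaving out a mouse or a library gave 3801 to 4484 calls for V4 against V1 (2000 to 2331 higher and 1801 to 2182 lower). For the difference of changes it gave 1220 to 2150 calls (777 to 1258 above and 443 to 918 below). The lowest of these were without mouse 3, and without mouse 4 there were 538 below. V1 and V4 of mouse 2 carry different pool indices, and without that mouse, so within pools, 2180 genes were higher and 1989 lower. DESeq2 called 2263 higher and 2186 lower. Depth limits calls among low genes, 32.3% of which were called below a mean of 10 CPM. The labels do not give cell numbers per library, so the precision behind low UMI counts is known only from the spread among mice.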

Other observations

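Among genes outside the 35 lists, those named here were picked after their values were seen, from the smallest adjusted p (edgeR quasi-likelihood test) in each direction. Asah2, the ceramidase of the brush border, had 26.9, 16.01, 47.6 and 51.1 CPM in V1 and 148, 132, 262 and 219 CPM in V4 (2.46 ± 0.16). Smpdl3b, a phosphodiesterase of the sphingomyelinase family, had 34.3, 34.9, 57.5 and 55.3 and 128, 178, 241 and 269.6 CPM (2.151 ± 0.14). Cidec, a protein of lipid droplets, had 4.74, 3.43, 9.28 and 6.54 and 45.2, 52.8, 78.8 and 81.7 CPM (3.40 ± 0.25). In these 3 genes the lowest V4 library lay above the highest V1 library. Ephx2, a soluble epoxide hydrolase, and the cytochrome P450 genes Cyp4b1 and Cyp4v3 rose by 2.23 ± 0.14, 2.52 ± 0.17 and 2.12 ± 0.14. Sgk1, a kinase induced by corticosteroids, went from 19.1 ± 7.89 to 128 ± 50.7 CPM (2.74 ± 0.19), and Amn, which with cubilin forms the receptor for vitamin B12, from 168 ± 45.5 to 566 ± 116 CPM (1.77 ± 0.13).

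Among the falls were the tetraspanins Tspan1 and Tspan8. Tspan1 had 76.9, 128, 144 and 118 CPM in V1 and 35.8, 46.3, 25.5 and 24.5 CPM in V4 (-1.74 ± 0.17), and the more abundant Tspan8 had 434, 615, 556 and 537 and 213, 258, 239.8 and 229 CPM (-1.18 ± 0.12). Ptma, prothymosin alpha, and Mif, the macrophage migration inhibitory factor, which epithelial cells make as well, had log2 differences of -1.27 ± 0.13 and -1.31 ± 0.14. C1qbp, a protein of the mitochondrial matrix, had -1.40 ± 0.15. Annotated ribosomal pseudogenes were called too, among them Rps19-ps2 (-1.53 ± 0.14), Rpl3-ps1 (-1.27 ± 0.13) and Rps25-ps1 (-1.16 ± 0.12). Reads of these copies and of their parent genes were not told apart in the counts.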
